A study of Mus musculus with 4 samples.

Results

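Dimethylation of lysine 27 on histone H3 (H3K27me2) was mapped in mouse zygotes at the late pronuclear stage, and the peaks described here are those whose nearest gene was a zinc finger protein gene. A peak was counted when the gene identifier the authors gave it belonged to a symbol made of Zfp and digits only, and it is called a Zfp peak below. The rule found 576 of the 56036 peaks in the 4 deposited peak lists, at 144 of the 372 mouse genes with such a symbol. The zygotes were made by fertilising eggs of C57BL/6J females with PWK/PhJ sperm, so that strain differences in the reads sorted each read to the maternal or the paternal genome. In the Ezh2m+/p+ group the mothers carried floxed Ezh2 without Cre. In the Ezh2m-/p+ group they carried floxed Ezh2 and Gdf9-Cre, which deletes the gene in the growing oocyte, while the sperm brought an intact Ezh2 allele in both groups. Each genotype had 1 H3K27me2 library of pooled zygotes and 1 input library, and each H3K27me2 library gave a maternal and a paternal list.

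With 1 library per genotype no difference below has a replicate check, and none was tested. Intervals are 95% Wilson intervals of counts. They cover counting error only and treat peaks as independent, although many Zfp peaks lie side by side at the same gene. The study's sequencing summary lists more reads for the Ezh2m+/p+ than for the Ezh2m-/p+ zygotes, in the H3K27me2 and in the input library, and the part of this in the list sizes was not tested. How the reads split between the parental genomes is not given in the sources used here, and a shorter list of one parent cannot be told apart from a shallower one. The lists do not show whether Ezh2 was deleted.

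H3K27me2 is laid down by Polycomb repressive complex 2, whose catalytic subunit is EZH2 or EZH1, and it is the most widespread form of H3K27 methylation in most cells. The Zfp genes are the mouse zinc finger genes named by number. Most encode C2H2 proteins, in which a run of fingers reads DNA, each finger folding around a zinc ion held by a pair of cysteines and a pair of histidines. Many of them also carry a KRAB domain, which recruits TRIM28 and heterochromatin to retroelements and imprinted loci, and these genes arose by tandem duplication and sit in clusters.

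In the longest coding transcript of each gene, 334 of 358 coding Zfp genes held at least 1 finger motif, with a median of 11 fingers and a highest of 33. In 273 genes (81.7%) every finger lay in the last exon, whose median length was 2313 bp against 1044 bp over all coding genes. A peak over the last exon of such a gene may lie over its DNA-reading domain or over the rest of the exon. Of the paternal peaks over a last exon, 9 of 16 in Ezh2m+/p+ and 11 of 22 in Ezh2m-/p+ zygotes also lay over fingers. The coding sequences below are pairs of neighbouring fingers that lay under H3K27me2 peaks, read from GRCm38 (mm10). They are shown because several paternal peaks covered all fingers of a gene, and each begins at the first cysteine of one finger and ends at the last histidine of the next. Capitals mark the cysteine and histidine codons. The first 5 belong to genes of the most densely covered cluster and lay under paternal peaks, at chr7:29828567-29828713 (plus strand), chr7:29845578-29845724 (minus), chr7:29895774-29895920 (minus), chr7:29915216-29915362 (plus) and chr7:29935595-29935741 (minus). Zfp68, at chr5:138606959-138607105 (minus), also lay under paternal peaks, and Zfp454, at chr11:50873764-50873910 (minus), lay under a maternal peak.
Zfp790: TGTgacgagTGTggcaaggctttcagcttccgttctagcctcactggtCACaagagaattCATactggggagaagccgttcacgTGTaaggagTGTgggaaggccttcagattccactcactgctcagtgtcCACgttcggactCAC
Zfp940: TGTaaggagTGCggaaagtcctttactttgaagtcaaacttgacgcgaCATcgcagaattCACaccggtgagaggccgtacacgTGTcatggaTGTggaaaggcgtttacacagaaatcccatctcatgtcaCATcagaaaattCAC
Zfp27: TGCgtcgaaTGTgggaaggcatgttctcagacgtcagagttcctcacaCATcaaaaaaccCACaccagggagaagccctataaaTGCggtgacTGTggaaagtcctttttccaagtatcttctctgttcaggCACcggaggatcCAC
Zfp383: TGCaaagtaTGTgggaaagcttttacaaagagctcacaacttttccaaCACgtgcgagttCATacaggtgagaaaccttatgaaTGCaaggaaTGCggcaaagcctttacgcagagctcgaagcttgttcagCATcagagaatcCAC
Zfp74: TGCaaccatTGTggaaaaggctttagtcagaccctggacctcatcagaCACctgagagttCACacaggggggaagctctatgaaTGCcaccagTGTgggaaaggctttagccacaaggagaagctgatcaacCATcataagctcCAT
Zfp68: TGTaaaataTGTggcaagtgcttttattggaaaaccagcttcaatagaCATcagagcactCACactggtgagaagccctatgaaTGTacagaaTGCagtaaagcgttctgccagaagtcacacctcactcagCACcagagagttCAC
Zfp454: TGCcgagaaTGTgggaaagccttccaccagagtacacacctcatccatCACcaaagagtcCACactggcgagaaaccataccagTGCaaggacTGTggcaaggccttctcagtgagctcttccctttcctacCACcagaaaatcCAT

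These 147-base pairs encode the zinc-holding cysteines and histidines at matching places, although the codons used for them vary. Compared base by base, the 6 pairs read from the cluster on chromosome 7 were 49.0% to 64.6% identical to each other (median 57.8%, 15 comparisons). The 6 include the pair of Zfp146, which is not printed. The closest were Zfp74 and Zfp383, with 95 of 147 bases in common. Reads from fingers that are more alike than these can be placed on the wrong gene, so that single peaks over finger exons are uncertain in that respect, and this was not tested.

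Promoters under peaks are shown as the 250 bases before the RefSeq start in GRCm38.p6, for genes whose window lay wholly inside a peak. There were 14 such windows, of which 5 held the motif described next, and 4 with it and 2 without it are printed. Of the 372 Zfp genes, 307 had a RefSeq promoter. Capitals mark TACANTTCC or its reverse complement, searched on both strands over 250 bases before and 50 after the start. This motif was chosen after these sequences had been seen, and it is part of the element that ZFP143, the mouse ZNF143, is known to bind. Zfp595 at chr13:67332561-67332810 (minus), Zfp712 at chr13:67061171-67061420 (minus) and Zfp759 at chr13:67127978-67128227 (plus) belong to the same cluster on chromosome 13 and had paternal peaks. Zfp454 at chr11:50887511-50887760 (minus) had a maternal peak. The windows without the motif are those of Zfp708, which lies between Zfp712 and Zfp759 at chr13:67097977-67098226 (minus), and of Zfp68 at chr5:138619744-138619993 (minus), both under paternal peaks.
Zfp595: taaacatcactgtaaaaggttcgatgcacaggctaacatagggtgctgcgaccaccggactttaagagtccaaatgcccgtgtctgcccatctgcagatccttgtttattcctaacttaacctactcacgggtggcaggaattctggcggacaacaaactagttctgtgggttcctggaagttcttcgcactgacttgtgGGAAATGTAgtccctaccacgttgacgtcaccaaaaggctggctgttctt
Zfp712: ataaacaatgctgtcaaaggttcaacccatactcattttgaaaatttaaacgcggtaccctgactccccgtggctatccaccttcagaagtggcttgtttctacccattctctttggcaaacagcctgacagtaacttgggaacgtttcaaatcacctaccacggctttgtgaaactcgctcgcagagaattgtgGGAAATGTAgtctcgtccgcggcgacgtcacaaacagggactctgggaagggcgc
Zfp759: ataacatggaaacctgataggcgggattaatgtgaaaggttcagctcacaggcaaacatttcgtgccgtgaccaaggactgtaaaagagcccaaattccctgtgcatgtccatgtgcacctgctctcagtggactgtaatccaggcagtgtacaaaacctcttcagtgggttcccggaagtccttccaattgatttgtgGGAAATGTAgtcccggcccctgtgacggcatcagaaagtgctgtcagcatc
Zfp454: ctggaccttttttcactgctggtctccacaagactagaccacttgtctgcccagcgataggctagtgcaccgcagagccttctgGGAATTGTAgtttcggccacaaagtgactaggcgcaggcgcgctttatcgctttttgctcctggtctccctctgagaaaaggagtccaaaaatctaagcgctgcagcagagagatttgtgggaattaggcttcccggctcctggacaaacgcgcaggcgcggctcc
Zfp708: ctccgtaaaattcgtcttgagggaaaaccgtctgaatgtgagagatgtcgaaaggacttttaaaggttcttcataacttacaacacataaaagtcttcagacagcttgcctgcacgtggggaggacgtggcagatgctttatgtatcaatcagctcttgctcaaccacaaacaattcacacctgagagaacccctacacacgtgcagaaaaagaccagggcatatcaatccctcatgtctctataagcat
Zfp68: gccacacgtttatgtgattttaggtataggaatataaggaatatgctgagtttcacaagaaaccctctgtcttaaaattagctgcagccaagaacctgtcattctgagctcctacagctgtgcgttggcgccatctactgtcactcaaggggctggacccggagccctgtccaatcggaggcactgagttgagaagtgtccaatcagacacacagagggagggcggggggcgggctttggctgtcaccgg

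The motif was in 44 of 307 Zfp promoters (14.3%, interval 10.9 to 18.7) and in 2.05% of 27025 RefSeq promoters of the same length. Zfp genes with a paternal peak within 1 kb of the start held it in 5 of 10 promoters in Ezh2m+/p+ zygotes (interval 23.7 to 76.3). These were Zfp74, Zfp84, Zfp595, Zfp712 and Zfp759. In Ezh2m-/p+ zygotes it was in 9 of 25 (20.2 to 55.5), with Zfp74, Zfp595, Zfp712 and Zfp759 again among them. The motif was chosen with promoters under peaks in view, so these shares cannot test whether it goes with peaks. Many of the genes with a start peak are in clusters, and 18.9% of the Zfp promoters in clusters held the motif against 6.31% outside. Zfp promoters were also rich in CG dinucleotides, with a median of 13 in 300 bases against 7 over all promoters. Those with a start peak had medians of 14 and 13 in the paternal lists, the same level as the whole family.

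Zfp peaks were more frequent on the paternal genome than on the maternal one in both genotypes. The study itself reported a lower H3K27me2 level on the paternal genome, by depth and coverage of signal. Counts of peaks above a threshold are an unlike measure and do not give the level of the mark. In Ezh2m+/p+ zygotes there were 32 maternal peaks at 23 Zfp genes and 197 paternal peaks at 69 genes. In Ezh2m-/p+ zygotes there were 73 maternal peaks at 53 genes and 274 paternal peaks at 96 genes. Zfp peaks made up 0.557% of the Ezh2m+/p+ maternal list (interval 0.395 to 0.785) and 1.10% of the paternal list (0.960 to 1.27). The shares were 0.760% (0.605 to 0.954) and 1.20% (1.07 to 1.35) in Ezh2m-/p+ zygotes. The intervals of the parental genomes did not overlap, but peaks of a gene are not independent, so this does not gauge a parental difference. Named genes had 1.39 maternal and 2.86 paternal Zfp peaks each in Ezh2m+/p+, and 1.38 and 2.85 in Ezh2m-/p+ zygotes. The paternal list held 6.16 times as many Zfp peaks as the maternal list in Ezh2m+/p+ zygotes, against 3.11 times for all peaks, and 3.75 times in Ezh2m-/p+ zygotes, against 2.38 times. The Ezh2m+/p+ ratio depended on the peaks counted: it was 2.77 (all peaks 1.45) with lengths over 2000 bp and 14.7 (all peaks 6.45) with folds over 10.

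Counted by gene, coding Zfp genes carried maternal peaks less often than coding genes as a whole. Of 358 coding Zfp genes, 6.42% (interval 4.32 to 9.46) were named by a maternal peak in Ezh2m+/p+ zygotes, against 15.1% of all 20820 coding genes. In the paternal list of the same zygotes the share was 19.0% (15.3 to 23.4), against a background of 21%. In Ezh2m-/p+ zygotes it was 14.8% (11.5 to 18.9) on the maternal genome, against 21.8%, and 26.3% (22.0 to 31.0) on the paternal genome, against 24.6%. The maternal shares lay below the background, and both paternal intervals included it.

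**Figure D1:**
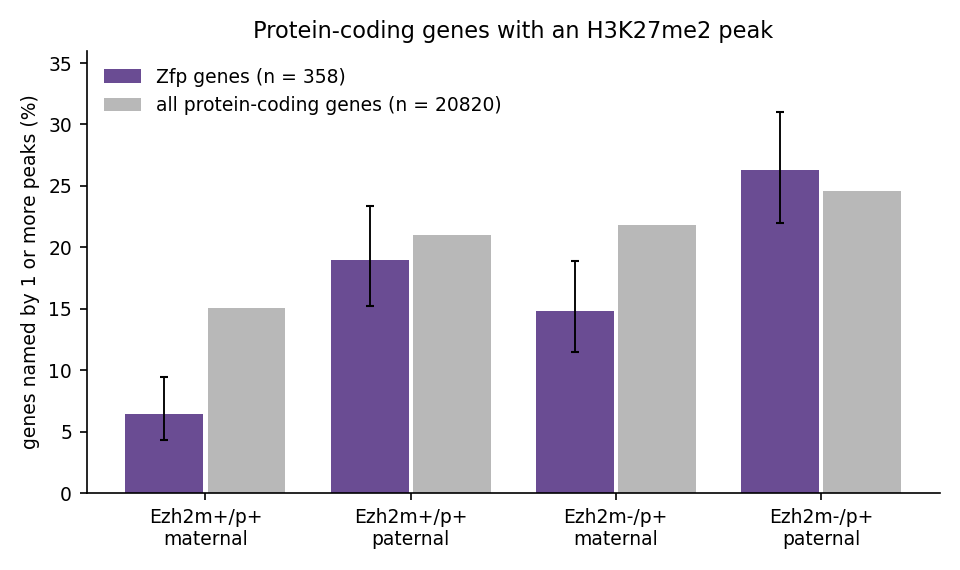
Share of protein-coding genes named by at least 1 H3K27me2 peak, in percent, for Zfp genes and for all protein-coding genes in each list. Error bars are 95% Wilson intervals of counting error. The Zfp share is 6.42% against 15.1% in the Ezh2m+/p+ maternal list and 26.3% against 24.6% in the Ezh2m-/p+ paternal list.

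No list named 228 of the 372 Zfp genes, while 66 were in 1 list, 62 in 2, 13 in 3 and 3 in all 4. Among coding genes, 60.3% of Zfp genes (216 of 358, interval 55.2 to 65.3) and 53.2% of all genes were named by no list. The 3 genes in all lists were Zfp365, Zfp423 and Zfp608. Zfp423, a multi-finger factor of cerebellar and adipose development, had 1 peak in the Ezh2m+/p+ maternal list, 2 in the paternal list, 1 in the Ezh2m-/p+ maternal list and 5 in the paternal list. In each paternal list 1 of its peaks lay over finger codings, 3 of the gene's 27 in Ezh2m+/p+ and 2 in Ezh2m-/p+, none of which are in the last exon. Zfp608 had 2, 11, 2 and 14 peaks in the same order, of which 2, 11, 1 and 14 were intergenic. Zfp365 had 1, 2, 3 and 4 peaks. Its last exon carried a paternal peak in both genotypes, at 72.2-fold over input in the Ezh2m+/p+ list and 126-fold in the other.

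The 13 genes in 3 lists were Zfp64, Zfp180, Zfp282, Zfp366, Zfp395, Zfp507, Zfp521, Zfp532, Zfp536, Zfp609, Zfp618, Zfp704 and Zfp710. Only Zfp180 and Zfp282 of these belong to a cluster. Zfp536, a repressor of neuronal differentiation, had the most Zfp peaks of the paternal lists, 19 and 22, but 0 and 1 on the maternal genome. Zfp619 followed with 12 and 15 paternal peaks, and Zfp608 and Zfp462 came next in both lists, with 11 each in Ezh2m+/p+ and with 14 and 11 in Ezh2m-/p+. Zfp619 and Zfp462 had no maternal peak. Of the Ezh2m+/p+ paternal peaks, 5 of 19 at Zfp536 and 5 of 12 at Zfp619 were intergenic. Over all paternal Zfp peaks the median distance to the nearest start was 14573 bp in Ezh2m+/p+ zygotes, against 23784.5 bp for other peaks. In Ezh2m-/p+ zygotes it was 13867.5 bp, against 25830 bp. The shares beyond 100 kb were 25.4% against 20.1% and 23.4% against 22.5%.

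Zfp407 had 6 maternal peaks in Ezh2m+/p+ zygotes, 2 in Ezh2m-/p+ zygotes and none on the paternal genome. Zfp281, a regulator of pluripotency, Zfp608, Zfp827 and Zfp831 had 2 each in the Ezh2m+/p+ list. In the Ezh2m-/p+ maternal list Zfp438 had 5 peaks, Zfp516 had 4, and Zfp277 and Zfp365 had 3 each. Of these, Zfp281, Zfp407, Zfp438, Zfp516, Zfp827, Zfp831 and Zfp277 had no paternal peak in either genotype.

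The fold over input ranged from 5.03 to 46.9 in the Ezh2m+/p+ maternal list and from 5.12 to 229 in the paternal list. It ranged from 5.07 to 52.8 and from 5.12 to 363 in Ezh2m-/p+ zygotes. The largest maternal folds were 46.9 at Zfp422 and at Zfp180 and 45.6 at Zfp608 in Ezh2m+/p+, and 52.8 at Zfp69, 44.4 at Zfp281 and 42.1 at Zfp287 in Ezh2m-/p+. The largest paternal folds in Ezh2m+/p+ were 229 over the last exon of Zfp691, 169 at Zfp618 and 144 at Zfp708. In Ezh2m-/p+ they were 363 at Zfp74, 284 at Zfp712 and 189 at Zfp383. Folds fell on few steps: the 197 paternal peaks of Ezh2m+/p+ zygotes held 45 distinct values, and 33 of them were 36.1. Of the 274 in Ezh2m-/p+ zygotes, 29 were 63.0. Large folds are thus coarse, and one place could differ widely between the lists. The peak at chr7:29958001-29961199 near Zfp74 had a fold of 363 in Ezh2m-/p+ zygotes, and the overlapping peak in Ezh2m+/p+ zygotes had 9.78. Median folds of Zfp peaks and of all other peaks were 6.79 and 7.37 in the Ezh2m+/p+ maternal list, and the same to 3 digits in each of the other lists, at 36.1, 23.7 and 15.8.

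**Figure D2:**
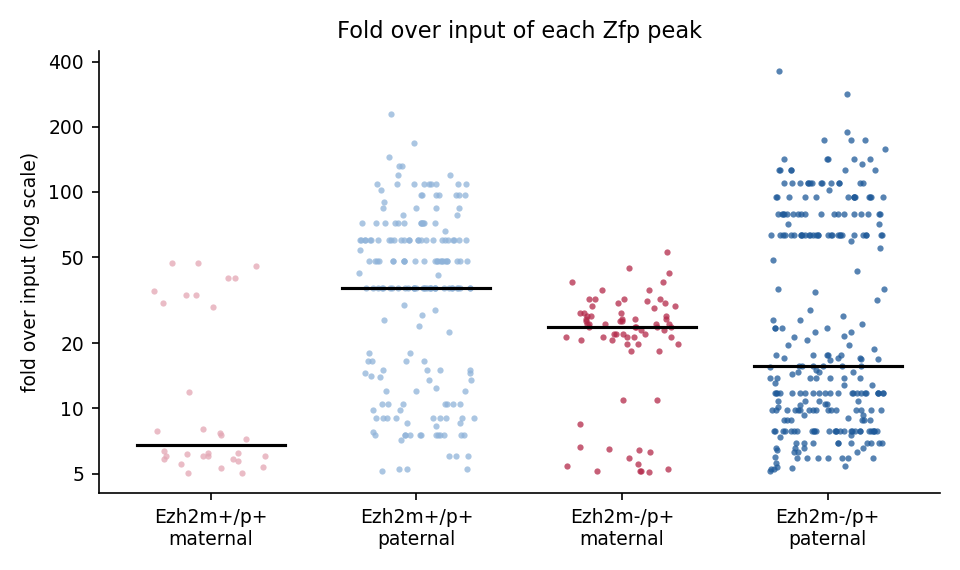
Fold over input of each of the 576 Zfp peaks on a log scale, by list; points are spread sideways at random and the black line is the median. The paternal points lie in rows, 33 of them at 36.1 in Ezh2m+/p+ and 29 at 63.0 in Ezh2m-/p+ zygotes.

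In length and base composition the Zfp peaks were close to the other peaks. The median length was 3199 bp in the Ezh2m+/p+ maternal list, against 2999 bp for all other peaks, and 1799 bp in the paternal list, against 1799. It was 1999 bp against 2199 in the Ezh2m-/p+ maternal list and 1999 against 1999 in the paternal list. The longest were 6999 bp at Zfp870, 8999 bp over Zfp27, 5999 bp over the start of Zfp454 and 17999 bp at Zfp708. Median GC content was 44.8% to 46.5% for Zfp peaks and 43.9% to 45.6% for other peaks, over the 4 lists. Repeat-masked bases made up a median of 27.002%, 20.6%, 19.8% and 23.4% of Zfp peaks, in the same order of lists as the lengths, and 19.3% to 21.5% of other peaks.

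Zfp genes within 500 kb of the next were joined into clusters of at least 3 genes from the annotation alone. This gave 33 clusters with 225 genes and left 147 genes outside. Peaks did not favour clustered genes: in the 4 lists 3.56%, 14.2%, 8.89% and 23.1% of clustered genes were named by a peak, against 10.2%, 25.2%, 22.4% and 29.9% of the others, in the order Ezh2m+/p+ maternal, paternal, Ezh2m-/p+ maternal, paternal. Of the 33 clusters, 13 had paternal Zfp peaks only, 8 had maternal Zfp peaks only, 5 had both and 7 had none, and 5 clusters had a single Zfp peak over the 4 lists. Counted by any peak within the span, whatever gene it named, 6 clusters had paternal peaks only, 8 maternal only, 13 both and 6 none.

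**Figure D3:**
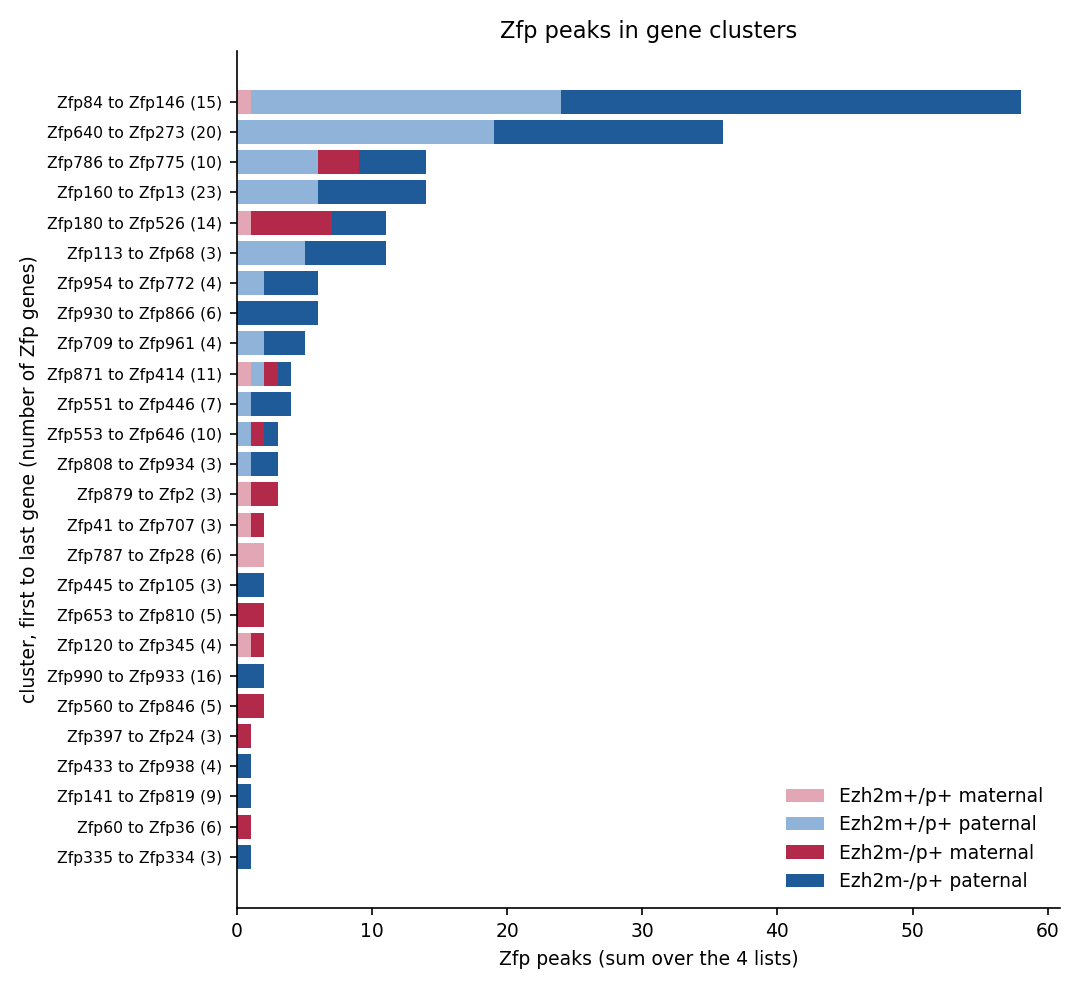
Zfp peaks in each of the 26 clusters with a peak, as bars stacked by list (x axis, number of peaks; labels give the first and last gene and the number of Zfp genes). The Zfp84 to Zfp146 and Zfp640 to Zfp273 clusters hold the longest bars, made up of paternal peaks except for 1.

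The densest was a run of 15 genes from Zfp84 to Zfp146, at chr7:29768552-30169775. It held 1 Zfp peak in the Ezh2m+/p+ maternal list, 23 in the paternal list, 0 in the Ezh2m-/p+ maternal list and 34 in the paternal list. Paternal peaks covered 17.1% of its span in the Ezh2m+/p+ list and 25.9% in the Ezh2m-/p+ list, against 1.62% and 2.54% of the genome. They named 11 and 13 of the 15 genes. They were thickest from Zfp790 through Zfp940, Zfp420, Zfp27 and Zfp383 to Zfp74, which had 7 paternal peaks in the first and 8 in the second genotype. Over Zfp27 a peak of 8999 bp, at chr7:29888801-29897799, covered all 21 of its fingers in Ezh2m+/p+ zygotes at 14.5-fold, and the peak there in Ezh2m-/p+ zygotes covered all 21 at 5.32-fold. Zfp568, which represses an Igf2 transcript of the placenta, had 1 and 3 paternal peaks. The single maternal peak lay at the start of Zfp30, at 29.5-fold.

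**Figure D4:**
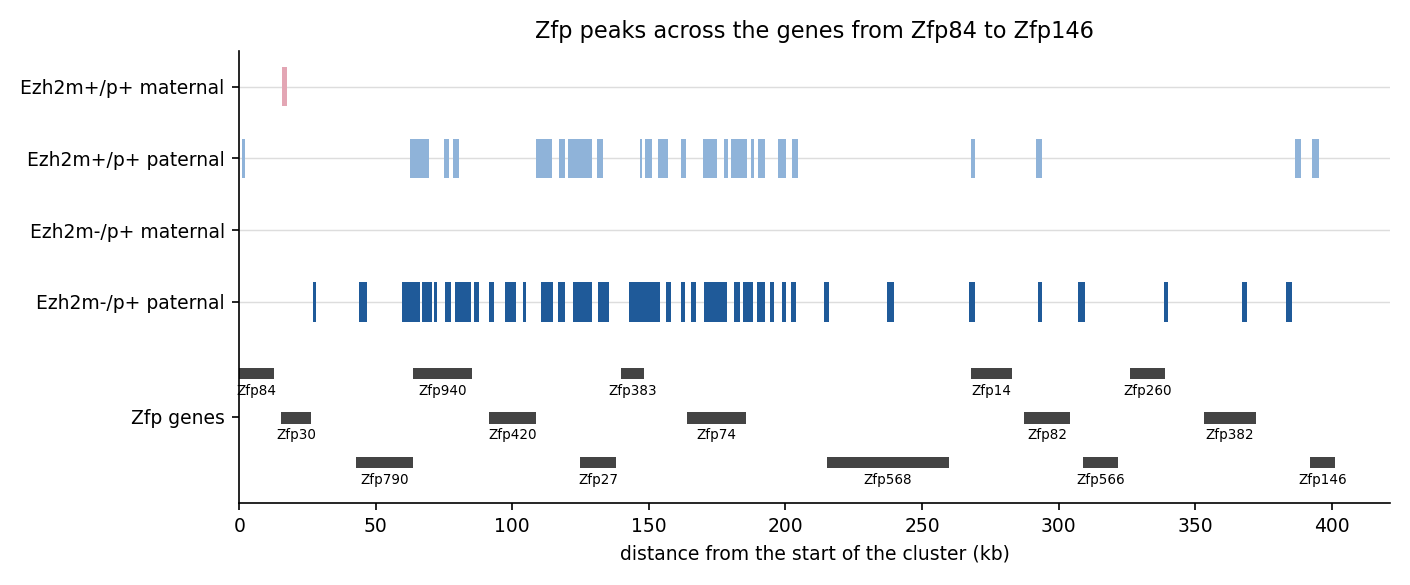
Positions of Zfp peaks along the cluster from Zfp84 to Zfp146 (x axis, kb from the cluster's start), 1 row per list, with the 15 Zfp genes below. The Ezh2m+/p+ paternal row has 23 peaks and the Ezh2m-/p+ paternal row 34, while the maternal rows have 1 and 0.

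The 20-gene run from Zfp640 to Zfp273, at chr13:66670274-67827000, had 0 maternal and 19 paternal Zfp peaks in Ezh2m+/p+ zygotes, and 0 maternal and 17 paternal Zfp peaks in Ezh2m-/p+ zygotes. Over all peaks in the span the paternal counts were 35 and 43, covering 7.31% and 13.0% of it. The Zfp peaks named 5 and 6 of its genes, mainly Zfp712, Zfp708, Zfp759 and Zfp595. Zfp708, which binds the retroelement RMER19B, had 8 separate paternal peaks in Ezh2m+/p+ zygotes, where Ezh2m-/p+ zygotes had 4. The lower count did not mean less covered length: 4 of the 8 lay within a single Ezh2m-/p+ peak of 17999 bp, at chr13:67072601-67090599. The 3-gene run from Zfp113 to Zfp68 had 5 and 6 paternal Zfp peaks, with the finger exon of Zfp68 and the last exon of Zfp157 covered in both genotypes. The 23-gene run from Zfp160 to Zfp13 had 6 and 8 paternal Zfp peaks over 2591 kb, and the 6-gene run from Zfp930 to Zfp866 had 6 paternal Zfp peaks in Ezh2m-/p+ zygotes and none in any other list.

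Maternal peaks were also found in other clusters. The 14-gene run from Zfp180 to Zfp526 had 1 maternal and 0 paternal Zfp peaks in Ezh2m+/p+ zygotes, and 6 maternal and 4 paternal Zfp peaks in Ezh2m-/p+ zygotes. The 6 maternal peaks were 1 each at Zfp180, Zfp112, Zfp114, Zfp111, Zfp109 and Zfp93, at folds of 6.41 to 24.5. Counted over all peaks in the span, there were 0 maternal and 2 paternal peaks in Ezh2m+/p+, and 10 maternal and 7 paternal peaks in Ezh2m-/p+ zygotes. The 1 maternal Zfp peak of Ezh2m+/p+ zygotes lay just outside the span. The 10-gene run from Zfp786 to Zfp775 had 0 maternal and 6 paternal Zfp peaks in Ezh2m+/p+ zygotes, and 3 maternal and 5 paternal Zfp peaks in Ezh2m-/p+ zygotes, the maternal peaks being at Zfp282, Zfp777 and Zfp746. Over all peaks in this span there were 1 maternal and 22 paternal peaks, and 3 maternal and 22 paternal peaks, in the same order. The 16-gene run from Zfp990 to Zfp933 had 2 Zfp peaks among 4 peaks in its span, all of them in the Ezh2m-/p+ paternal list.

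In the deposited annotation, paternal Zfp peaks were assigned to the last exon or the 3' UTR more often than other peaks. In Ezh2m+/p+ zygotes the deposited annotation placed 16 of 197 paternal Zfp peaks there (8.12%, interval 5.06 to 12.8), against 4.04% of other peaks and 4.09% of all peaks. In Ezh2m-/p+ zygotes it placed 25 of 274 there (9.12%, 6.26 to 13.1), against 4.43% of other peaks and 4.49% of all. The maternal lists had too few Zfp peaks to tell, as both maternal intervals included the paternal shares. No maternal Zfp peak of Ezh2m+/p+ zygotes was so annotated (0 of 32, interval 0 to 10.7), where all peaks had 5.38%. In Ezh2m-/p+ zygotes 3 of 73 were (4.11%, 1.41 to 11.4), where all peaks had 4.99%.

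For promoters within 1 kb of a start the paternal shares were 12.2% in Ezh2m+/p+ (24 of 197, interval 8.33 to 17.5), against 10.5% of all peaks, and 16.8% in Ezh2m-/p+ (46 of 274, 12.8 to 21.7), against 10.9%. The maternal shares were 9.38% (3 of 32, 3.24 to 24.2), against 9.33%, and 8.22% (6 of 73, 3.82 to 16.8), against 9.43%. Within 1 kb, only the Ezh2m-/p+ paternal interval lay above its background. From 1 to 3 kb the Zfp shares were 11.2% (interval 7.49 to 16.3) against 6.74% of other peaks in the Ezh2m+/p+ paternal list, 13.7% (7.61 to 23.4) against 7.06% in the Ezh2m-/p+ maternal list and 9.49% (6.56 to 13.5) against 5.97% in the Ezh2m-/p+ paternal list, each interval lying above the other peaks. In the Ezh2m+/p+ maternal list the share was 6.25% (2 of 32, 1.73 to 20.1) against 6.48%. Introns held fewer paternal Zfp peaks than other peaks, 20.3% against 28.3% in Ezh2m+/p+ and 18.2% against 27.4% in Ezh2m-/p+ zygotes. On the maternal genome the shares were 40.6% (13 of 32, interval 25.5 to 57.7) against 31.4% in Ezh2m+/p+. In Ezh2m-/p+ zygotes they were 28.8% (19.7 to 40.0) against 31.7%.

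**Figure D5:**
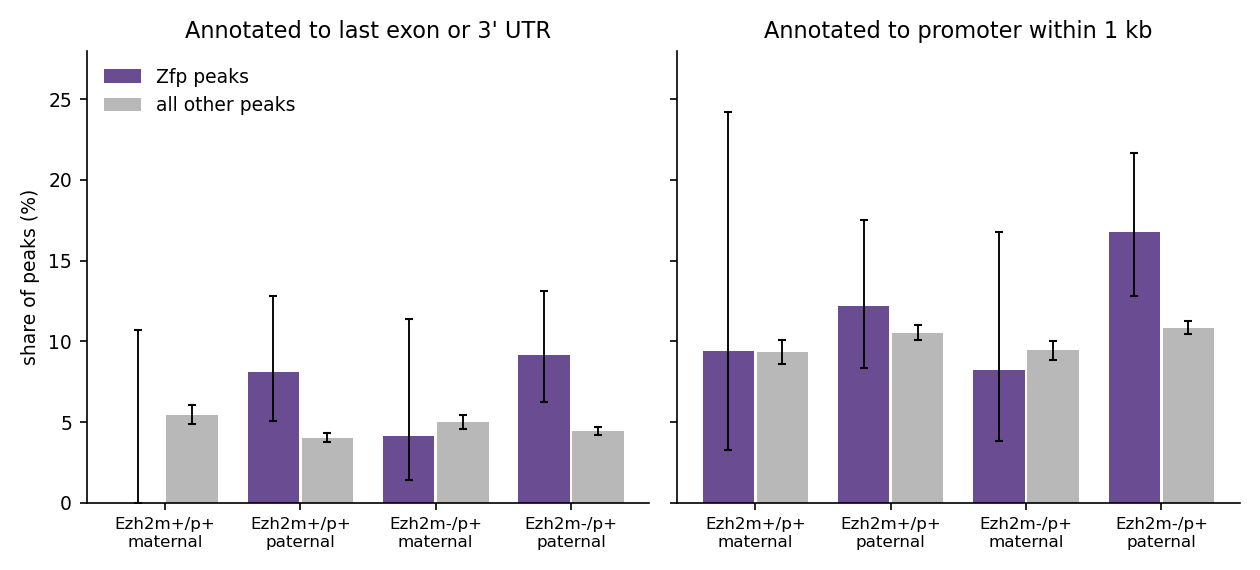
Share of peaks, in percent, annotated to the last exon or 3' UTR (left) and to a promoter within 1 kb (right), for Zfp peaks and all other peaks of each list, with 95% Wilson intervals. Zfp peaks of the paternal lists stand at 8.12% and 9.12% on the left, other paternal peaks at 4.04% and 4.43%.

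The deposited annotation may refer to another transcript or gene than the one named, so the peaks were also placed on the longest coding transcript of the named gene, an addition made after the data were seen. Of the peaks whose gene had such a transcript, those touching the last exon of the Zfp gene were 1 of 32 (3.13%), 16 of 194 (8.25%), 2 of 73 (2.74%) and 22 of 263 (8.37%), in the order Ezh2m+/p+ maternal, paternal, Ezh2m-/p+ maternal, paternal. The same shares over all peaks were 2.61%, 3.43%, 2.72% and 3.47%. On the transcript named in the lists, the paternal shares over the last exon were lower, 5.95% (11 of 185, interval 3.35 to 10.3) against 3.54% of all peaks in Ezh2m+/p+, and 6.98% (18 of 258, 4.46 to 10.8) against 3.76% in Ezh2m-/p+. The first of these intervals included the share of all peaks. On the longest coding transcript a peak lay within 1 kb of the start in 3.13%, 6.19%, 5.48% and 11.0% of cases, against 3.79%, 5.58%, 4.28% and 6.11% over all peaks. The last exons of the Zfp genes named in the paternal lists were longer than those of the other genes, with medians of 2406 and 2393 bp against 1205 and 1192 bp, and their part in these shares was not tested.

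Both positions were more frequent in clustered than in other Zfp genes. On the paternal genome 11.9% (8 of 67, interval 6.18 to 21.8) and 14.1% (14 of 99, 8.61 to 22.3) of the peaks of clustered genes touched the last exon in Ezh2m+/p+ and Ezh2m-/p+ zygotes, against 6.30% (3.23 to 11.9) and 4.88% (2.49 to 9.33) outside clusters. Within 1 kb of the start the shares were 10.4% and 17.2% in clusters and 3.94% and 7.32% outside. The intervals of clustered and other genes overlapped in each of these comparisons. A peak touched both ends of its gene in 1 case of each paternal list and in none of the maternal lists, so that last-exon and start peaks were nearly always separate peaks.

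Finger codings lay under 14 of 197 paternal Zfp peaks of Ezh2m+/p+ zygotes, each at a different gene, and under 15 of 274 of Ezh2m-/p+ zygotes, likewise. Zfp27, Zfp68, Zfp383, Zfp423, Zfp532, Zfp592, Zfp618 and Zfp940 had such a peak in both. The maternal genome had 0 such peaks among 32 in Ezh2m+/p+ zygotes. Those of Ezh2m-/p+ zygotes numbered 4 of 73, at Zfp341, Zfp366, Zfp407 and Zfp454, a share close to the paternal one of that genotype. Zfp940 had a paternal peak over 7 of its 10 fingers in Ezh2m+/p+ zygotes, at 9.03-fold, and over all 10 in Ezh2m-/p+ zygotes, at 110-fold. Zfp68 had all 9 of its fingers covered in both, at 13.5-fold and 10.8-fold. The maternal peak of Zfp454 covered 5 of 12 fingers at 23.7-fold, with a second peak of 5999 bp over the start of the gene at 10.9-fold.

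Between genotypes, more paternal than maternal Zfp peaks overlapped, as was the case for all peaks. Of the 197 paternal Zfp peaks of Ezh2m+/p+ zygotes, 124 (62.9%, interval 56.0 to 69.4) overlapped an Ezh2m-/p+ paternal peak by at least 1 bp, where all paternal peaks had 66.1%. This share was 28.9% with a reciprocal overlap of 50% (all peaks 31.4%) and 40.7% among peaks with folds over 10 (all peaks 45.3%). Of the 32 maternal Zfp peaks, 2 did (6.25%, 1.73 to 20.1), against 9.47% of all maternal peaks. Taken as shares of the Ezh2m-/p+ lists, 107 of 274 paternal (39.1%, interval 33.5 to 44.9, all peaks 45.7%) and 3 of 73 maternal Zfp peaks (4.11%, all peaks 5.78%) overlapped. The recurrent maternal peaks were one in an intron of Zfp277 and one that the deposited annotation calls intergenic, at -4535 bp from the start of the Zfp831 transcript it names, although it lies within the RefSeq span of the gene.

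By gene, 62 Zfp genes had paternal peaks in both genotypes, 7 only in the Ezh2m+/p+ and 34 only in the Ezh2m-/p+ list. The shared genes were 89.9% of the Zfp genes of the first list and 64.6% of the second, against 86.8% and 74.1% over all coding genes. On the maternal genome 13 were in both, 10 only in the Ezh2m+/p+ and 40 only in the Ezh2m-/p+ list, which is 56.5% and 24.5% shared, against 57.7% and 40.0% over all coding genes. The Ezh2m-/p+ lists held 2.28 times as many maternal and 1.39 times as many paternal Zfp peaks as the Ezh2m+/p+ lists, while for all peaks the ratios were 1.67 and 1.28. The maternal ratio was 1.15 with lengths over 2000 bp (all peaks 1.13), 5.45 with folds over 10 (all peaks 3.11) and 1.44 with lists of equal size. The Zfp share of the maternal list was thus 0.557% and 0.760%, with overlapping intervals.

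Between the parental genomes no Zfp peak overlapped in either genotype. Over all peaks, the share of maternal peaks overlapping a paternal peak was 0.418% for Ezh2m+/p+ and 0.416% for Ezh2m-/p+. The intervals of 0 of 32 and 0 of 73 maternal Zfp peaks reached 10.7% and 5.00%, so that a share like that of all peaks was not detectable at this number. The same Zfp gene was named on both genomes in 5 cases in Ezh2m+/p+ zygotes (Zfp365, Zfp395, Zfp423, Zfp608 and Zfp704) and in 19 in Ezh2m-/p+ zygotes. These were 21.7% and 35.8% of the maternal Zfp genes, against 27.2% and 28.9% over all coding genes, and 7.25% and 19.8% of the paternal Zfp genes, against 19.6% and 25.6%. The nearest maternal and paternal peaks of such a gene lay 14.4 to 67.6 kb apart in the first group (median 21.0) and 0.201 to 78.0 kb apart in the second (median 16.6). At Zfp341 the gap was 0.201 kb. At Zfp180, with 1 maternal and 2 paternal peaks in Ezh2m-/p+ zygotes, it was 3.60 kb.

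Genes with known roles were read from short lists. Zfp57 and Zfp445, which protect imprints after fertilisation, had no peak in any list. Of 9 genes in the reference from a list drawn up for retroelement silencing, in which Zfp568 is better known for the Igf2 transcript named above, 4 had a peak (44.4%, interval 18.9 to 73.3), against 38.7% of all Zfp genes. None had a maternal peak, in lists that named 6.42% and 14.8% of coding Zfp genes. Zfp708 and Zfp568 had paternal peaks in both genotypes, as described above. Zfp961 had 1 in Ezh2m+/p+ zygotes at 72.2-fold, and Zfp37 had 1 in Ezh2m-/p+ zygotes at 70.9-fold, both annotated as intergenic. Zfp600, Zfp809, Zfp819, Zfp92 and Zfp932 had none, and Zfp997 and Zfp998 were not matched by symbol.

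Of 7 genes of pluripotency and the early embryo, 5 had a peak (71.4%, interval 35.9 to 91.8), and the interval included the 38.7% of all Zfp genes. Zfp281 had 2 maternal peaks in the Ezh2m+/p+ list and 1 in the Ezh2m-/p+ list, which did not overlap. The 2 lay outside the gene, at -45302 and -18502 bp from its start, and the other was annotated as intergenic. Zfp143, an activator of housekeeping promoters, had 1 maternal peak in Ezh2m+/p+ zygotes at 6.03-fold. That peak lay outside Zfp143, in an intron of another gene and 4172 bp from the start of the named transcript. Zfp462 had 11 paternal peaks in each genotype, 7 of them intergenic in each. Zfp42, the pluripotency marker Rex1, had 1 paternal peak in Ezh2m-/p+ zygotes at 7.88-fold, 32.6 kb from its start. Zfp217 had 1 in the same list, annotated as intergenic, at 110-fold. Zfp296 and Zfp352 had none, and Zfp322 was not matched.

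Of the 15 genes of development and the nervous system, 11 had a peak (73.3%, interval 48.0 to 89.1), against 144 of the 372 Zfp genes (38.7%). Of all coding genes, 53.2% were named by no list. The 15 genes were chosen with earlier results of these data known, and gene length was not taken into account. They held 10 of the 32 maternal and 40 of the 197 paternal Zfp peaks in Ezh2m+/p+ zygotes, and 16 of 73 and 53 of 274 in Ezh2m-/p+ zygotes. Of the 40, 19 were at Zfp536 and 11, all intergenic, at Zfp608. Besides Zfp407, Zfp423, Zfp516, Zfp536 and Zfp608, given above, Zfp618 had 0, 6, 2 and 5 peaks in the order Ezh2m+/p+ maternal, paternal, Ezh2m-/p+ maternal, paternal. Zfp521, a factor of neural and blood progenitors, had 0, 2, 1 and 2. Zfp609 had 1, 0, 1 and 1, Zfp644 had 0, 0, 1 and 3, Zfp503 had 0, 0, 1 and 0, and Zfp335 had 0, 0, 0 and 1. Zfp148, Zfp488, Zfp703 and Zfp750 had none, and neither did Zfp36, whose CCCH fingers bind RNA.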

How the data were processed

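Zygotes of 2 genotypes were profiled by ULI-NChIP, a native chromatin precipitation for few cells, with 1 H3K27me2 and 1 input library each. The submitters' processing notes name Trimmomatic 0.38, Bowtie2, SAMtools, Picard and SICER on mm10. The authors split reads by parental strain variants, called peaks of H3K27me2 over input and deposited 4 annotated lists. The deposited value per peak is a ratio, the fold over input, beside other columns for length and distance to the nearest transcription start. A deposited table of chromosome coverage as a fraction was not used, since it gives no value for genes. The genotype and parent of a list were read from its name.

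Gene identifiers were matched to RefSeq symbols (GRCm38.p6). Transcripts came from GENCODE vM21, and all 56036 peaks lay inside GRCm38 chromosomes. Fingers were matched as C2H2 patterns in translated coding sequence. Python 3.11.15, pandas 2.3.3, numpy 2.4.6, pysam 0.24.0 and matplotlib 3.10.9 were used. Overlap and cluster steps were tested on simulated peaks. Peaks or genes were counted, and no test was made. Alternatives were longer peaks (over 2000 bp), folds over 10, peaks in or within 3 kb of the gene, wider symbols, lists of equal size, other position and overlap rules, and other cluster gaps.

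The members, gene lists and rules were chosen with earlier results of these data known. Genes were named if they had a peak in 3 or more lists, led a list by peaks, fold or length, belonged to a list of known roles, or lay in a cluster with 5 or more peaks in a list.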

Additional observations from a re-analysis of the deposited data

Results flagged for a closer look

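In 4 results the Ezh2m-/p+ list differed from the Ezh2m+/p+ list in opposite directions on the maternal and the paternal genome. With 1 library per genotype none of these differences was tested. The promoter share of Zfp peaks in the deposited annotation was -1.16 percentage points on the maternal and 4.61 points on the paternal genome (Ezh2m-/p+ minus Ezh2m+/p+). The intervals of the genotypes overlapped on both genomes. The maternal share rose instead on the longest coding transcript (3.13% to 5.48%), by covered base pairs (6.19% to 11.3%) and with lengths over 2000 bp (3.85% to 16.7%). It fell with folds over 10 (18.2% to 6.67%) and on the named transcript (10.0% to 8.45%). The share over the last exon of the longest coding transcript was -0.385 points on the maternal and 0.118 points on the paternal genome, which is far inside the counting intervals. In the deposited annotation the share in the last exon or 3' UTR rose on both genomes, from 0% to 4.11% and from 8.12% to 9.12%. On the named transcript it went from 3.33% to 2.82% on the maternal and from 5.95% to 6.98% on the paternal genome. The Zfp786 to Zfp775 cluster differed by 3 maternal Zfp peaks and -1 paternal Zfp peak. Counted over all peaks in its span, it had 22 paternal peaks in both genotypes and 1 and 3 maternal peaks, so that the opposite directions were not seen there. The Zfp84 to Zfp146 cluster differed by -1 maternal peak and 11 paternal peaks.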

How the results depend on the processing

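Of the alternatives tried, 69 values stayed within the interval of the value they replace, or within 1.5 times of a cluster count, and 25 moved. The shares of Zfp peaks were 0.853%, 1.65%, 0.968% and 1.56% with the wider symbols, in the order Ezh2m+/p+ maternal, paternal, Ezh2m-/p+ maternal, paternal. The Ezh2m-/p+ maternal share was 0.587% with peaks over 2000 bp, and the paternal share was 1.40% with peaks in or near the gene. The shares of Zfp genes with a peak near or in the gene were 3.23%, 12.6%, 8.60% and 19.9%. With lengths over 2000 bp they were 10.5%, 6.99% and 15.3% in all but the first list. With folds over 10 the Ezh2m+/p+ maternal share was 2.69%, and with lists of equal size the Ezh2m-/p+ maternal share was 9.95%. The promoter share was 3.13%, 6.19% and 11.0% on the longest coding transcript, chosen after seeing the data, in the lists other than the Ezh2m-/p+ maternal one. With peaks over 2000 bp it was 22.2% in the Ezh2m+/p+ paternal list, where the share of other peaks was not computed. By covered base pairs it was 24.2% in the Ezh2m-/p+ paternal list, where other peaks had 17.5%.

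The overlap of paternal Zfp peaks between genotypes was 28.9% with a reciprocal overlap of 50%, where all peaks had 31.4%, and 40.7% with folds over 10 in both lists, where all peaks had 45.3%. It was 39.1% as a share of the Ezh2m-/p+ list. Counting the same gene in both lists in place of overlapping peaks gave 5 and 19 between the parental genomes. No paired analysis was possible because each genotype had 1 library and the labels carry no replicate numbers. The unknown split of reads between the parental genomes limits every comparison of counts between maternal and paternal lists.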
